A study of Homo sapiens with 12 samples.

Results

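The receptor tyrosine kinases described here are 10 genes often altered or targeted in gastric cancer: EGFR, ERBB2, ERBB3, FGFR1, FGFR2, FGFR3, FGFR4, MET, IGF1R and AXL. They were chosen by name, from 19340 genes that the deposited tables list. All 10 were looked up by gene name in a list of m6A peaks for each condition, in a table of differential m6A peaks, and in the input FPKM columns of that table. N6-methyladenosine (m6A) is a methyl mark on adenosine in RNA, and FTO is an enzyme that removes it. The cells were HGC27, an established gastric carcinoma line, either with FTO knocked down or as controls of genotype WT. RNA fragments pulled down with an antibody against m6A (IP) and fragments taken before that step (input) were sequenced in 12 libraries, 3 of each kind per condition. The labels call the treated genotype FTO-KO, whereas the protocol speaks of a knockdown. The titles number the knockdown libraries sh1 to sh3 and do not say whether these are different hairpins or repeats of 1. No hairpin sequence or control construct is named, and nothing says that libraries numbered 1 to 3 were separate cultures. Each p-value computed here for input RNA thus reflects just the variation among these libraries, and that may be technical. The p-values of m6A peaks are the authors' own and were not set against the spread between libraries.

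Receptor tyrosine kinases span the cell membrane, bind a growth factor outside the cell, pair up, and phosphorylate each other on tyrosines inside it. Adaptor proteins then dock on these tyrosines and pass the signal to the RAS and MAPK cascade and to PI3 kinase. In gastric cancer, amplified ERBB2, FGFR2, EGFR and MET are known drivers in part of the tumours, and ERBB2 and FGFR2 are drug targets. In messenger RNA, m6A is typically found in long internal exons, around the stop codon and in the 3' UTR.

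FTO RNA itself stood at 0.786, 0.83 and 0.765 FPKM in the knockdown libraries, against 5.48, 5.68 and 5.52 FPKM in the controls. FPKM were listed for 6396 genes, each with a differential m6A peak, so levels are known only for that part of the transcriptome. Of cell type markers, 1 of 12 gastric epithelial, 2 of 9 fibroblast and 0 of 7 immune genes had listed FPKM, so the cell type could not be checked further from this table. The epithelial marker MUC1 averaged 1.43 ± 0.219 FPKM after knockdown and 1.24 ± 0.0415 FPKM in controls (SD, n = 3 each). The fibroblast-associated genes COL1A1 and THY1 averaged 147 and 15.0 FPKM after knockdown, against 169 and 12.5 FPKM in controls. Their part in the results below was not tested.

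Most of the receptor genes had a listed m6A peak in both conditions. The knockdown list held 17 peaks on 8 of the 10 genes, and the control list 14 peaks on 8 of the 10. Of protein-coding RefSeq gene symbols, 47.2% had a peak in the knockdown list and 56.1% in the control list. Peaks on EGFR, ERBB2, FGFR2, FGFR3, FGFR4, MET and IGF1R were in both lists, AXL had a peak in the knockdown list alone, FGFR1 in the control list alone, and ERBB3 had none in either under its own name. The fold enrichment given with each peak is the authors' ratio of IP over input, 1 value for all libraries of a condition, and it is used to describe peaks within a list. Over the receptor peaks it had a median of 6.42 in the knockdown list and of 5.92 in the control list, beside 7.05 and 6.11 over all peaks of those lists. By annotation the peaks were mainly in untranslated regions. A 3' UTR was given for 10 of 17 knockdown peaks and 10 of 14 control peaks, and a 5' UTR for 3 and 4. Over the whole lists, 46.5% of knockdown peaks and 47.6% of control peaks were in 3' UTRs, and 13.9% and 12.6% in 5' UTRs. Of the control peaks annotated to a 5' UTR, the MET peak and the longer IGF1R peak have 3 and 5 blocks. Both reach knockdown peaks that are annotated to the second exon. By overlap of at least 1 exonic base pair, 14 of 17 knockdown peaks (82.4%) met a control peak of the same gene and 12 of 14 control peaks (85.7%) met a knockdown peak, beside 85.6% and 56.4% over all peaks. With 50% reciprocal overlap both counts were 6. Transcripts given with the 3' UTR peaks were all retained-intron (EGFR and FGFR3) or processed ones (ERBB2, FGFR1, FGFR2 and IGF1R). A protein-coding transcript was given for 5 of 17 knockdown and 2 of 14 control peaks, beside 36.4% and 33.4% over all peaks. The lists have no replicates, so these counts were not tested between conditions.

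**Figure D1:**
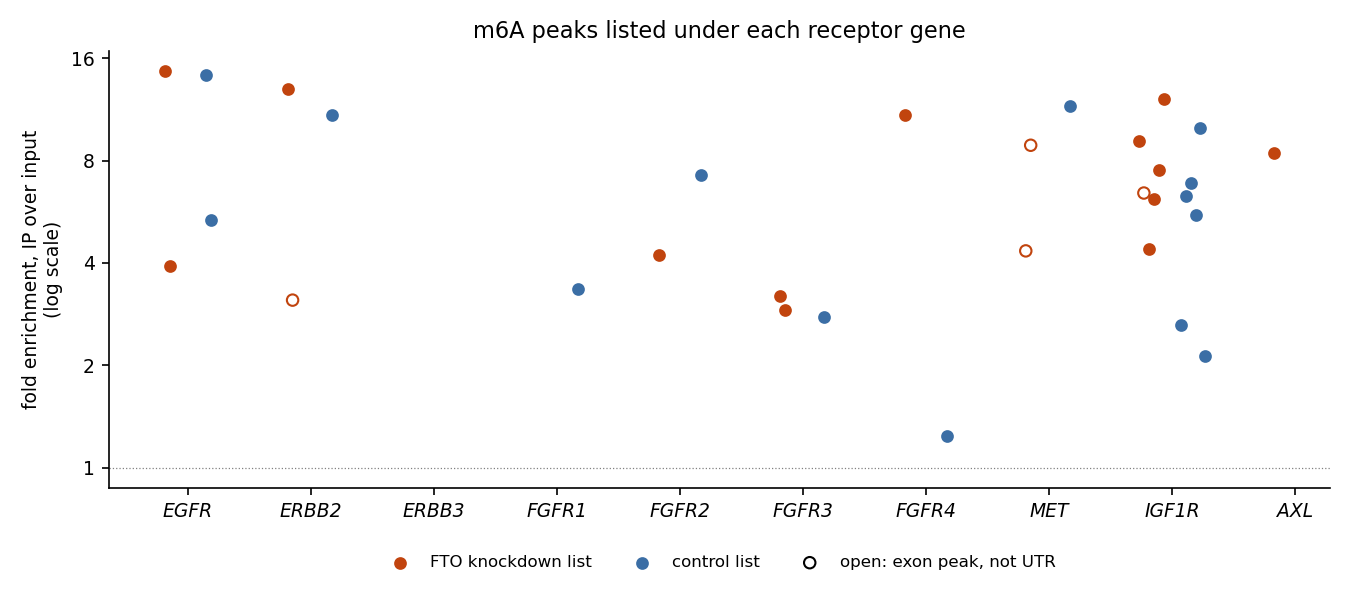
Fold enrichment of IP over input (log axis) of each peak listed under the 10 receptor genes, with the FTO knockdown list at left (orange) and the control list at right (blue) of each gene; open symbols are exon peaks outside UTRs. Among these genes EGFR holds the highest peak in both lists, at 14.7 and 14.3, IGF1R has 6 peaks in each list, and ERBB3 has none.

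Among the ErbB receptors, EGFR and ERBB2 had strongly enriched 3' UTR peaks. EGFR is the receptor for EGF and related ligands. Its main peak was enriched 14.7-fold in the knockdown list (chromosome 7, 55205461 to 55206598, 1138 exonic bp) and 14.3-fold in the control list (55205341 to 55206808, 1468 bp). These enrichments stood at the 80.2 and 86.4 percentiles of their lists. A second 3' UTR peak of EGFR near the end of the gene was 3.91-fold enriched over 90 bp in the knockdown list and 5.34-fold over 600 bp in the control list. The authors' deposited table listed no differential peak under EGFR.

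ERBB2, which encodes HER2, a receptor with no known ligand of its own that pairs with the other ErbB receptors, had a main peak in its 3' UTR. That peak was enriched 13.0-fold in the knockdown list (chromosome 17, 39727720 to 39728557) and 10.9-fold in the control list (39727489 to 39730037). The control peak has 3 blocks and runs past the RefSeq end of ERBB2. Its span also holds a control peak listed under the neighbouring gene MIEN1, enriched 15.3-fold (39728496 to 39728646). The knockdown list had a second, weak ERBB2 peak, enriched 3.11-fold, at 39730276 to 39730426, where the control list had none under ERBB2. This second peak lies beyond the RefSeq end of ERBB2 at 39728658, on a processed transcript, and it overlaps a peak listed under the neighbouring gene MIEN1 (3.16-fold, 39730292 to 39730442). The control list also had a MIEN1 peak that overlaps these bases, enriched 7.64-fold (39730382 to 39730532). Reads from the pair cannot be told apart here, since no strand is stated for the libraries. ERBB3, the receptor for neuregulins that has little kinase activity itself, had no peak under its name.

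The fibroblast growth factor receptors carried few and mostly weak peaks. FGFR2, the receptor amplified in a part of diffuse gastric cancers, had 1 peak in its 3' UTR in each list, enriched 4.23-fold over 61 bp after knockdown and 7.24-fold over 660 bp in controls (chromosome 10, 121479560 to 121479620 and 121479440 to 121480099). FGFR3 had 2 peaks in the knockdown list, enriched 3.20-fold and 2.91-fold, and 1 in the control list, enriched 2.77-fold. All were annotated to its 3' UTR, on a retained-intron transcript. The second knockdown peak overlapped the control peak, while the first, at chromosome 4, 1807226 to 1807376, overlapped none. FGFR1 had a single weak 3' UTR peak in the control list, enriched 3.36-fold (log10 p of -2.20), and none after knockdown.

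FGFR4, known as a receptor for FGF19, had its peak at the other end of the transcript. It was annotated to the 5' UTR in both lists, with 10.9-fold enrichment after knockdown (chromosome 5, 177086905 to 177087425, log10 p of -141) and 1.24-fold in controls (177087024 to 177087455, log10 p of -1.82). The first stood at the 69.1 percentile of the knockdown list and the second at the 0.338 percentile of the control list. FGFR4 had no row in the authors' deposited table of differential peaks, so this contrast between the lists has no test. The knockdown peak covers the RefSeq start of the gene, at 177086915. The first 50 transcribed bases were searched for GGAC, the core of the sequence in which m6A is most often made, on both strands. The 30 bases printed, chr5:177086935-177086964 on the plus strand of GRCh38.p14 from RefSeq, hold the match in capitals, which begins at base 41 of the transcript.
FGFR4: ggagcgctcgggctgtctgcGGACcctgcc
GGAC was found on the transcribed strand in 18.9% of 35116 such windows of RefSeq starts, and on either strand in 33.5%. The match is a description of the letters under this peak. The same window of AXL, where its knockdown peak starts, held GGAC on neither strand.

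MET, the receptor for hepatocyte growth factor, was marked in its second exon, the long one that holds the start codon. The knockdown list had peaks of 4.34-fold and 8.87-fold enrichment there, at chromosome 7, 116699117 to 116699446 and 116699655 to 116700044. The control list had 1 peak spanning 3 blocks from 116695786 to 116724174 (1257 exonic bp, 11.6-fold, annotated as 5' UTR), which overlapped both. AXL, the receptor for GAS6 with known roles in invasion, had a peak at its very start in the knockdown list (chromosome 19, 41219223 to 41219372, 5' UTR, 8.39-fold, log10 p of -126). No AXL peak stood in the control list under that name, and no row for AXL in the authors' deposited table tests this difference.

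IGF1R, the receptor for the insulin-like growth factors, had the most peaks of the 10 receptors, 6 in each list, which covered 3213 exonic bp after knockdown and 4592 bp in controls. In the knockdown list 1 was in the 5' UTR, 1 annotated to the second exon, and 4 in the long 3' UTR. The 5' UTR peak was enriched 9.16-fold after knockdown (chromosome 15, 98648839 to 98649348) and 2.63-fold in controls (98648959 to 98649408), and the overlap was more than 50% of each. The peak annotated to the second exon was enriched 6.42-fold after knockdown, and the control peak it overlaps 6.31-fold. In the 3' UTR the highest peak was enriched 12.1-fold after knockdown (98962342 to 98962911) and 9.99-fold in controls (98962222 to 98963001). A broad control peak of 1710 bp (98957095 to 98958804, 6.87-fold) met 2 shorter knockdown peaks, of 4.41-fold and 6.16-fold. The last control peak, at 98963721 to 98963930 with 2.13-fold enrichment, met no knockdown peak, and is the site of the only IGF1R row among the differential peaks.

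**Figure D2:**
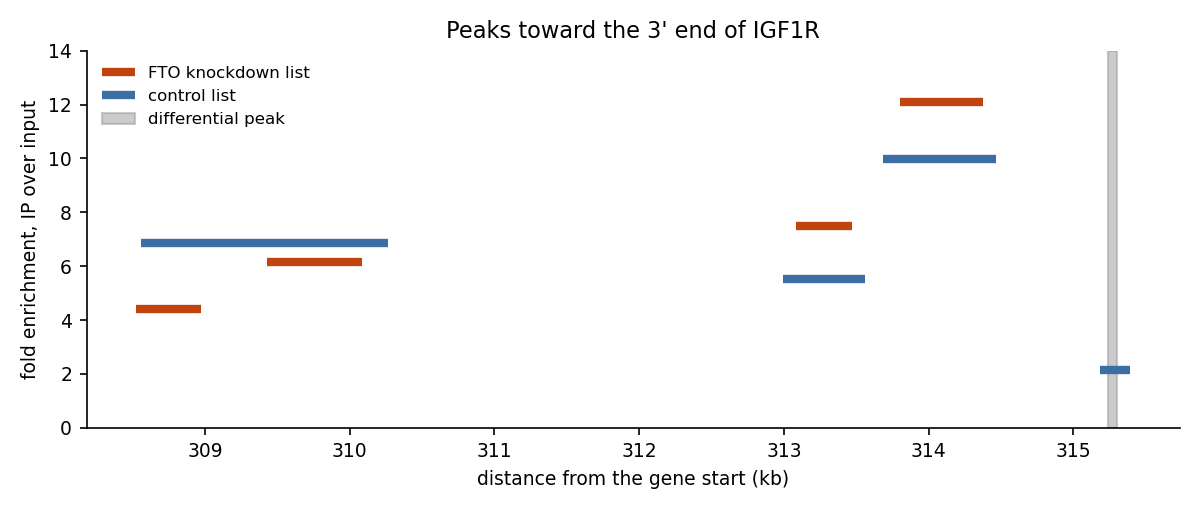
Peaks toward the 3' end of IGF1R by distance from the RefSeq gene start (kb, x axis) and fold enrichment of IP over input (y axis), for the FTO knockdown list (orange) and the control list (blue); the grey band is the differential peak. The band crosses the last control peak, at 2.13, where no knockdown peak is drawn.

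The gene name given to a peak decided whether some of the receptors had a peak at all. Each peak list also gives a second gene identifier, which differed from the named gene in 21.7% of knockdown peaks and 22.6% of control peaks. Among exon-annotated peaks where the identifiers differed, the exon belonged to the gene of the second identifier in 95.1% of knockdown and 95.8% of control peaks. By that identifier, chosen for this use after the data were seen, 19 knockdown and 20 control peaks belonged to the receptors, and in controls all 10 genes had a peak. ERBB3 had 2 control peaks in its 3' UTR and 0 peaks after knockdown. One was enriched 2.40-fold (chromosome 12, 56101648 to 56102007, listed under AC034102, log10 p of -6.82). The other was enriched 7.64-fold (56103295 to 56103505, listed under PA2G4), with a log10 p of just -3.94. MET had 3' UTR peaks that were listed under CAPZA2, the gene that follows it: 1 after knockdown (7.54-fold, 116798057 to 116798296) and 2 in controls (4.40-fold, and 8.35-fold at 116797489 to 116798386). AXL had an exon peak listed under HNRNPUL1 in both lists, enriched 3.25-fold after knockdown and 2.38-fold in controls, and a 3' UTR peak in controls alone (2.54-fold).

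Differential m6A peaks were listed for 4 of the 9 receptors with a peak in either list under their own name, where 32.9% of all genes with a peak had one. In the authors' deposited table, the sign of the log2 change is control over knockdown, and it was turned here to knockdown over control. FGFR3 and ERBB2 were listed as higher after FTO knockdown, and IGF1R and FGFR2 as lower. Among all 8687 usable rows, 55.4% were higher and 44.6% lower, so 2 and 2 of 4 are near those shares. All 4 had an adjusted p of at most 0.05 there, as had 88.2% of the usable rows; 50.5% of the rows were both under it and higher, as were 2 of these 4.

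The FGFR3 peak had the largest change of the 4, 1.90 on the log2 scale or 3.73-fold higher after knockdown (chromosome 4, 1807256 to 1807376, 3' UTR; adjusted p = 1.9e-10 in the authors' deposited table). It coincides with the knockdown peak that met no control peak. The ERBB2 row, 0.998 higher on the log2 scale (39730276 to 39730426; adjusted p = 0.0269 in the authors' deposited table), is the weak peak beyond the RefSeq end of the gene. The same table lists a row under MIEN1 over the same bases with a log2 change of 0.93 (39730263 to 39730532; adjusted p = 0.0219). These are therefore not separate observations. The peaks at that site were enriched 3.11-fold (ERBB2) and 3.16-fold (MIEN1) after knockdown, and 7.64-fold (MIEN1) in controls, an order opposite to that of the listed changes. The IGF1R row, a 60 bp stretch of the 3' UTR, was lower by 2.93-fold after knockdown (log2 change of -1.55, 98963781 to 98963840; adjusted p = 3.1e-05 in the authors' deposited table). The other 5 IGF1R peaks of the control list had no differential row. The FGFR2 row, over 571 bp of the 3' UTR, changed by -0.69 on the log2 scale (121479470 to 121480040; adjusted p = 0.000776 in the authors' deposited table), and it lies on peaks enriched 4.23-fold after knockdown and 7.24-fold in controls.

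By size of change the FGFR3 and IGF1R rows exceeded 94.8% and 91.2% of the listed peaks, and the ERBB2 and FGFR2 rows 73.5% and 49.9%. IP values per library were not analysed here, so these changes could not be set against the spread between replicates. Within AXL, the authors' deposited table had 2 rows listed under HNRNPUL1. One, in exon 19 of 20 of an AXL transcript and its surroundings (chromosome 19, 41257605 to 41259587), was 0.78 higher on the log2 scale after knockdown (adjusted p = 1.6e-11). The other, in the 3' UTR at 41260334 to 41260453, had a log2 change of -0.79 (adjusted p = 0.00813). No peak of either list under HNRNPUL1 or AXL met the first row. The second was met by a control peak listed under HNRNPUL1, enriched 2.54-fold. A row that falls inside ERBB3 (chromosome 12, 56101648 to 56102127) has no gene name and a p above 1, and was not used.

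**Figure D3:**
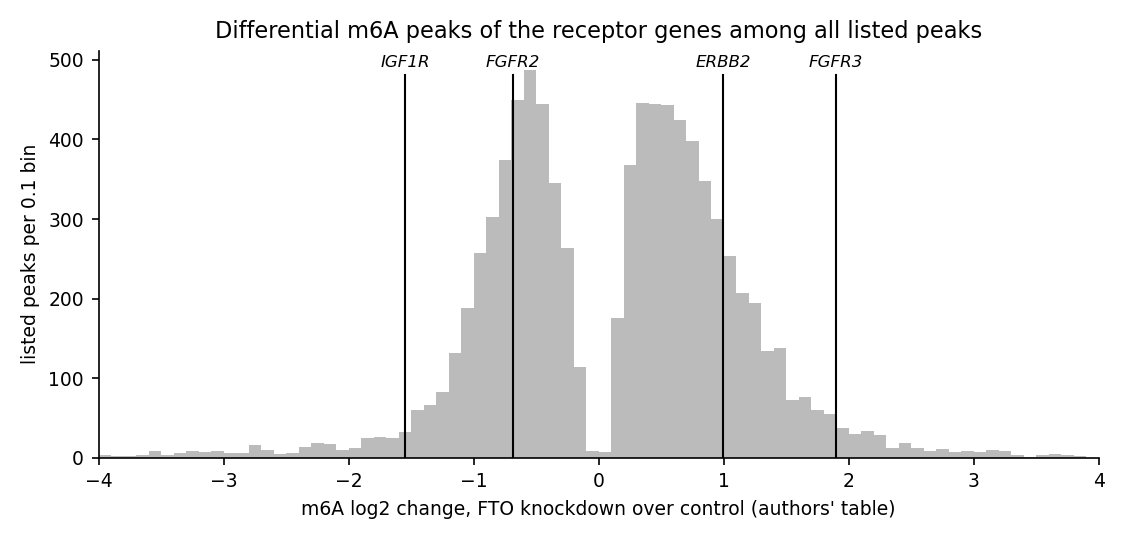
Distribution of the m6A log2 change (x axis, knockdown over control, from the authors' deposited table) over 8687 listed peaks (y axis, peaks per bin), with lines at the rows of the receptor genes. IGF1R (-1.55) and FGFR2 (-0.69) lie on the lower side, ERBB2 (0.998) and FGFR3 (1.90) on the higher side, and peaks past the ends of the axis are not drawn.

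Input RNA was listed for the 4 receptors with a differential peak. In FPKM, which is per length and can be compared between genes, IGF1R was the most abundant (12.2 to 14.7 over the 6 input libraries), followed by ERBB2 (8.79 to 10.1), FGFR3 (5.10 to 6.54) and FGFR2 (0.766 to 1.14). No neighbours in this order overlapped. Changes were tested with limma on log2(FPKM + 1) over 4515 genes whose mean reached 1 FPKM, with Benjamini-Hochberg adjustment over all of them and a threshold of 0.05. That scale understates the change of low genes. In such bulk samples a change in the share of cells that express a gene and a change in RNA per cell cannot be told apart.

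IGF1R stood at 12.6, 12.2 and 12.7 FPKM in the knockdown libraries, against 14.3, 14.7 and 14.2 FPKM in the controls. All 3 knockdown libraries were below all 3 controls. In limma IGF1R fell by 0.19 on the log2 scale (SE 0.0381, adjusted p = 0.00329), with a mean of 86.9% of the controls'. The call was lost when libraries were centred on their medians (log2 change of -0.10, adjusted p = 0.0701), and held after quantile normalization (-0.21, adjusted p = 0.0019). FGFR3 stood at 5.81, 5.34 and 5.10 FPKM after knockdown, against 6.31, 5.98 and 6.54 FPKM in controls, again with no overlap. It fell by 0.18 in limma (SE 0.0555, adjusted p = 0.0209), a call that rested on single libraries and on the scaling. It was lost without knockdown library 2 or 3 or control library 1 (limma adjusted p = 0.0606, 0.0824 and 0.057), after quantile normalization (0.153) and after median-centring (0.219).

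ERBB2 stood at 9.34, 8.92 and 8.79 FPKM after knockdown, against 9.21, 9.30 and 10.1 FPKM in controls. The groups overlapped, and knockdown library 1 was above 2 of the controls. Its log2 change of -0.07 did not pass limma (95% interval -0.19 to 0.04, adjusted p = 0.218), and after median-centring the value was 0.019. FGFR2 stood at 0.921, 0.783 and 0.766 FPKM after knockdown, against 1.004, 1.14 and 0.965 FPKM in controls, with every knockdown library under every control. Its mean of 0.929 FPKM kept it out of the test. Without that filter its log2 change was -0.16 (limma adjusted p = 0.049).

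So 2 of 3 tested receptors fell and 0 rose in limma, where 37.9% of all tested genes fell, 24.5% rose and 62.4% did either. By unadjusted p under 0.05 the counts were also 2 and 0. The library medians differed by -0.0927 on the log2 scale (knockdown minus control), a shift that median-centring removes. After median-centring 26.9% fell and 33.4% rose, and after quantile normalization 28.6% and 31.6%. After median-centring 0 receptors passed in limma, and 1 of the 3, IGF1R, had an unadjusted p under 0.05. After quantile normalization 1 passed, IGF1R. Groups did not overlap in 67.8% of all tested genes. In the authors' deposited table none of the 4 receptors passed for expression, with q-values of 0.666 for IGF1R, 0.690 for FGFR3, 0.555 for ERBB2 and 0.518 for FGFR2. In limma without further scaling, IGF1R thus had lower RNA and a lower listed m6A peak, and FGFR3 lower RNA and a higher listed peak. Neither RNA call held after median-centring.

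**Figure D4:**
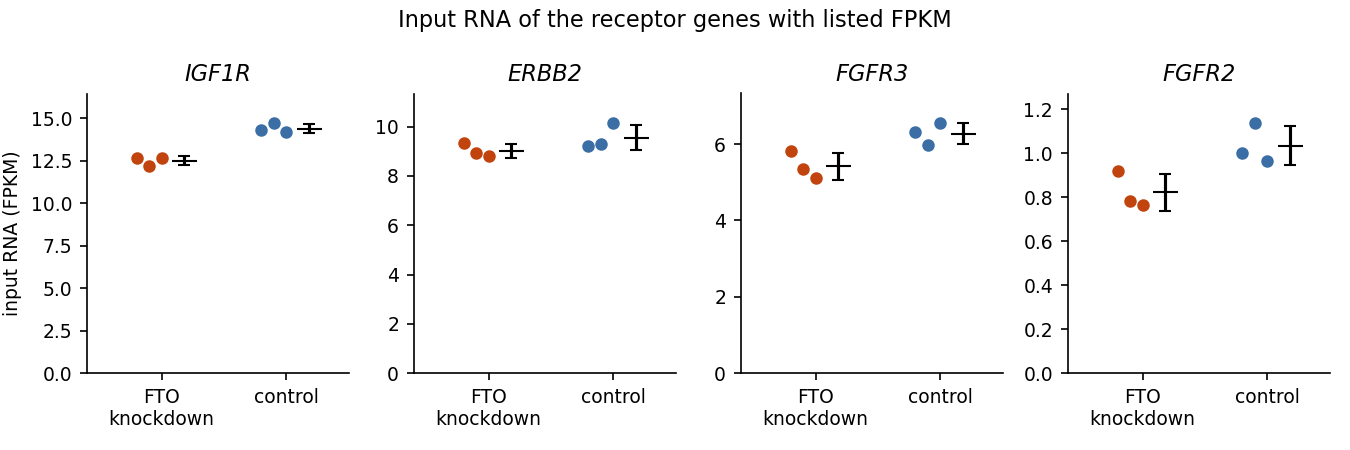
Input RNA in FPKM (y axis from 0, a separate scale per gene) in the 3 FTO knockdown (orange) and 3 control (blue) libraries for the receptors with listed values; bars are mean ± SD (n = 3). Groups are separate for IGF1R, FGFR3 and FGFR2 and overlap for ERBB2.

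Genes around the receptors were taken from lists of ligands, other receptor tyrosine kinases, adaptors with downstream kinases, and negative regulators. Of 34 ligands 2 were tested. GAS6, the AXL ligand, fell to 2.47 ± 0.0418 FPKM after knockdown, against 3.34 ± 0.143 FPKM in controls (SD, n = 3; limma log2 change of -0.32, adjusted p = 0.000726). NRG2, a neuregulin, averaged 0.976 and 1.07 FPKM and did not pass. Beside each list's counts, 37.9% of all tested genes fell, 24.5% rose and 62.4% did either. Of 48 other receptor tyrosine kinases 12 were tested, of which 6 fell and 3 rose, the count that rose being near the share over all genes (5 and 4 after median-centring, 6 and 4 after quantile normalization). MERTK, which belongs to the same family as AXL and shares the ligand GAS6, fell to 5.65 ± 0.256 FPKM, against 9.68 ± 0.513 FPKM in controls (SD, n = 3). INSR, the insulin receptor and closest relative of IGF1R, fell to 4.81 ± 0.0987 FPKM, against 6.17 ± 0.182 FPKM. NTRK2, a neurotrophin receptor, fell to 0.811 ± 0.0270 FPKM, against 1.66 ± 0.105 FPKM in controls, and LMTK3 to 0.782 ± 0.0510 FPKM, against 1.51 ± 0.106 FPKM. The collagen receptor DDR1 rose to 6.01 ± 0.170 FPKM, against 3.85 ± 0.0984 FPKM in controls, and the ephrin receptor EPHA2 to 27.8 ± 0.371 FPKM, against 21.3 ± 0.501 FPKM (SD, n = 3). Each of these 6 had a limma adjusted p of at most 0.000543.

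Of 36 adaptors and downstream kinases 17 were tested, of which 9 fell and 3 rose, so that 12 of 17 were called, not far from the 62.4% over all genes (8 and 5 after median-centring, 7 and 4 after quantile normalization). GAB2, which couples receptors to PI3 kinase and SHP2, fell to 6.56 ± 0.215 FPKM after knockdown, against 11.9 ± 0.431 FPKM in controls (SD, n = 3; limma log2 change of -0.77, adjusted p = 1.4e-05). IRS1, the main docking protein of IGF1R and INSR, fell to 4.51 ± 0.160 FPKM, against 7.80 ± 0.474 FPKM in controls (SD, n = 3; limma log2 change of -0.68, adjusted p = 4.1e-05). PLCG1, a phospholipase, and CRKL, an adaptor, also fell, by 0.34 and 0.29 on the log2 scale. Of 32 negative regulators 8 were tested, of which 5 fell and 0 rose in limma, so that 5 of 8 were called, again near 62.4%; by unadjusted p under 0.05 the counts were 6 and 0 (adjusted, 4 and 0 after median-centring, 5 and 1 after quantile normalization). Of the Sprouty genes, which restrain receptor signalling to MAPK and are themselves induced by it, 2 of the 3 tested were among them. SPRY4 fell to 4.24 ± 0.0991 FPKM, against 6.39 ± 0.0293 FPKM, and SPRY1 to 4.54 ± 0.0227 FPKM, against 6.19 ± 0.123 FPKM in controls (SD, n = 3). SPRY2 averaged 8.41 ± 0.285 FPKM after knockdown and 8.61 ± 0.729 FPKM in controls (SD, n = 3), and did not pass (limma adjusted p = 0.71). RNF41, a ubiquitin ligase for ERBB3, fell to 20.2 ± 1.15 FPKM, against 25.9 ± 1.15 FPKM, and the adaptor gene SH2B3 to 6.64 ± 0.361 FPKM, against 8.50 ± 0.170 FPKM. GRB10, an inhibitor of insulin and IGF1 receptors, averaged 7.99 ± 0.390 FPKM after knockdown and 8.87 ± 0.192 FPKM in controls (SD, n = 3; limma adjusted p = 0.0336). Its call was lost after quantile normalization (limma adjusted p = 0.111) and median-centring (0.48), and without knockdown library 2 or 3 or control library 1 or 2 (0.112, 0.076, 0.0725 and 0.106). INPPL1 stood at 29.9 and 32.5 FPKM without passing. The median log2 change was -0.21 over the other receptors, -0.29 over adaptors and kinases and -0.23 over negative regulators, beside -0.07 over all tested genes. In the authors' deposited table, expression did not pass for GAS6, CRKL, SH2B3 and GRB10 (q-values of 0.0631, 0.111, 0.0755 and 0.984). It passed there for the other genes of these lists named above as fallen or risen.

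**Figure D5:**
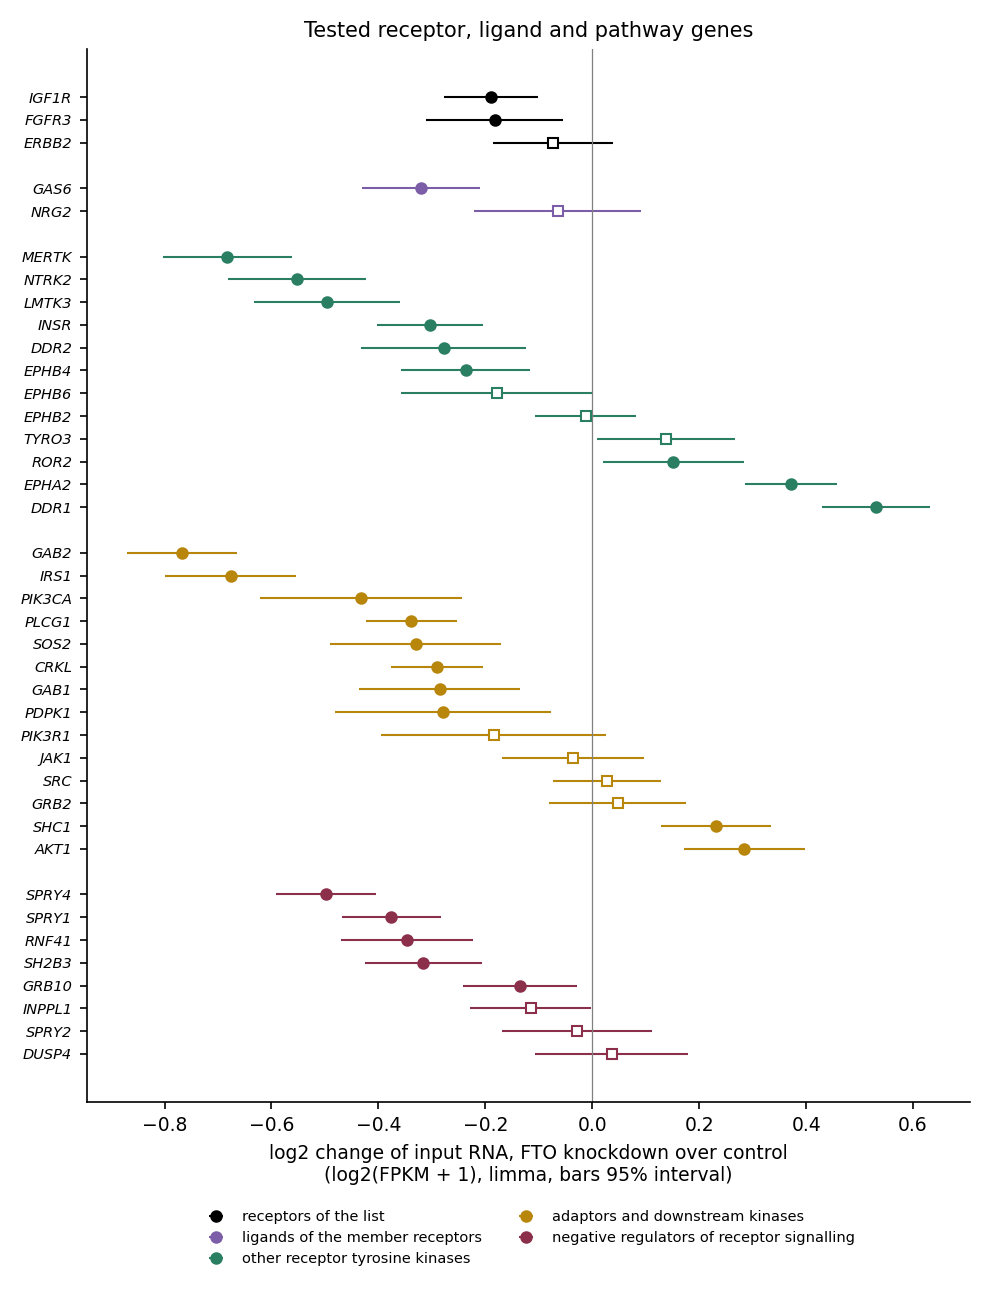
log2 change of input RNA (x axis, FTO knockdown over control, log2(FPKM + 1)) with its 95% limma interval for tested receptor, ligand and pathway genes, some of which are not shown; filled circles passed an adjusted p of 0.05 and open squares did not, and PIK3R2 (interval -4.15 to 0.84) is left out. GAB2 (-0.77) lies lowest and DDR1 (0.53) highest.

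Of all listed differential m6A peaks, 55.4% were higher after knockdown. Among other receptors 21 of 27 peaks, on 18 genes, were higher. Adaptors and kinases had 14 of 24, on 17 genes, which is near the share over all peaks. Negative regulators had 10 of 15, on 10 genes, and ligands 2 of 5, on 3 genes. None of these counts was tested. In the authors' deposited table, the other receptors with the largest changes were DDR1 (1.81 on the log2 scale, 5' UTR, adjusted p = 0.000214), MST1R, the receptor most like MET (1.68, 5' UTR, adjusted p = 2.5e-06), and LMTK3 (1.62, exon, adjusted p = 2.0e-26). For each gene only the row of largest change was taken, and any other rows were not compared. By that row DDR1 was higher in RNA and in m6A, and LMTK3 lower in RNA and higher in m6A. Among adaptors and kinases the same table gave log2 changes of 3.33 for PDPK1 (adjusted p = 0.0107), -3.32 for SOS2 (adjusted p = 0.0513) and -1.98 for PIK3CA (5' UTR, adjusted p = 0.000126). PDPK1 has a near-identical pseudogene copy, so its values are uncertain. Among negative regulators it gave 4.50 for DUSP5 (3' UTR, adjusted p = 0.0129), 1.54 for SH2B3 (adjusted p = 0.000141) and 1.25 for SPRY2 (5' UTR, adjusted p = 1.3e-18). Among ligands it gave -1.77 for NRG2 (adjusted p = 0.0011), -0.94 for FGF19 (adjusted p = 0.0295) and -0.42 for GAS6 (adjusted p = 0.114).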

How the data were processed

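The submitters' processing notes name Bowtie 0.12.2, HISAT2 2.0 and StringTie 1.3.0 without their roles, and mm8, a mouse build; peaks of the receptors fell on their human GRCh38.p14 RefSeq genes, so positions are read as GRCh38. The peak caller is not given in the sources used here. Per the file headers, the authors gave input RNA as FPKM, m6A and RNA changes as log2 fold changes with a p-value or q-value, peak enrichment as a ratio of IP over input, and log10 p as a score. The deposited differential p-value was above 1 in 283 of 8970 rows, all without a gene name, and these were left out. The deposited m6A log2 had a rho of -0.858 with knockdown over control enrichment over 4066 peaks, so its sign was turned. Starts in the files count from 0 (start plus 1 was a transcript start in 852 knockdown and 2023 control peaks, the start itself in 31 and 41) and are printed from 1. Of the knockdown list, 3 duplicate rows were dropped. Depth is unknown: FPKM showed no whole reads (smallest value above 0, 7.49e-07). Input libraries had correlations of at least 0.988 within a condition and at most 0.969 between conditions.

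Groups came from sample titles. limma 3.58.1 in R 4.3.3 (trend, no block, two-sided) compared 3 knockdown with 3 control libraries, and was tested on simulated data. An exact permutation test of 3 against 3 cannot go below p = 0.1. The receptors and gene lists were chosen with earlier results of these data known. Named are FTO, all receptors with their peaks, and per list the up to 6 genes of smallest limma p and up to 3 with the largest m6A change; neighbouring genes are named where a receptor peak is listed under them, and PIK3R2 was named after its values were seen. Some genes that this rule names are not reported here.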

Additional observations from a re-analysis of the deposited data

How the results depend on the processing

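The alternatives run covered pseudocount, filter, scaling, trend, replicate block, leave-one-out, peak thresholds and overlap. Of 215 values for the receptors, the lists, all genes and the peaks, 192 were labelled the same as in the main setting. This meant the same direction and call for genes, within 1.5 times for counts, and within 1 SD for FGFR2. Part of these values had little room to move, such as counts of 0 or a gene's log2 change under another filter. The total therefore does not measure how firm the receptor calls are. Receptors called lower numbered 1 after quantile normalization, 0 after median-centring, and 1 to 2 when a library was left out. After median-centring ERBB2 turned to 0.019, FGFR3 moved to -0.090, IGF1R to -0.096 and FGFR2 to -0.066; FGFR3 was -0.11 after quantile normalization, and FGFR2 was -0.30 with a pseudocount of 0.1. Without a library in turn, FGFR3 ranged from -0.23 to -0.15, and all genes called lower from 1462 to 1848. Among genes of at least 5 FPKM, 773 were called lower in all, 4 among adaptors and 0 among ligands; without a filter 2 ligands were called lower. Adaptors called higher numbered 5 after median-centring, and negative regulators 1 after quantile normalization. NRG2 turned to 0.12 after quantile normalization and 0.028 after median-centring. At 4-fold enrichment or more, 9 of 14 control and 13 of 17 knockdown receptor peaks remained; with 50% reciprocal overlap 6 in each list were shared. Library numbers did not pair the samples (correlations of -0.0769, 0.0278 and 0.0247); with the replicate block IGF1R and FGFR3 were called lower as before (limma adjusted p = 0.0113 and 0.033), while GRB10 was not (adjusted p = 0.0618). Depth is unknown, and m6A values per library were not analysed here, so the m6A changes are given without an error.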

Other observations

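PIK3R2, a regulatory subunit of PI3 kinase that activated receptors recruit, was noticed after its values were seen. It stood at 29.1, 26.4 and 0.246 FPKM in the knockdown libraries, against 30.3, 29.6 and 33.0 FPKM in the controls, so knockdown library 3 stood far below the other 5. In limma its log2 change was -1.66 with an interval of -4.15 to 0.84 (adjusted p = 0.211). The receptors had no such library: IGF1R, ERBB2, FGFR3 and FGFR2 in knockdown library 3 stood at 12.7, 8.79, 5.10 and 0.766 FPKM, next to the other knockdown libraries.

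HNRNPUL1, whose name is on the differential peaks inside AXL, averaged 26.7 ± 0.968 FPKM after knockdown and 29.9 ± 1.40 FPKM in controls (SD, n = 3). Its limma log2 change was -0.16 (adjusted p = 0.0199), and its q-value in the authors' deposited table was 0.921. MIEN1, whose peak overlaps that of ERBB2, averaged 9.72 ± 0.426 FPKM after knockdown and 9.64 ± 0.565 FPKM in controls (SD, n = 3; limma adjusted p = 0.864).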
